A study of Homo sapiens with 8 samples.

Results

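The genes described here build, regulate and anchor the actin cytoskeleton: actins, proteins that bind, nucleate, sever, crosslink or contract actin filaments, linkers to membrane and adhesion sites, and the transcription factor SRF with its coactivators. They are a list of 53 symbols chosen by function. A gene was represented by the brightest probe set over the 8 arrays among those that the platform annotation pairs with that symbol alone. Such a probe set was found for 49 of the 53 genes, out of 19775 genes in all. ACTG1, TPM3, FLNA and CAP1 had none and were not analysed here as single genes.

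Actin cycles between free monomers and filaments. Profilin and thymosins hold the monomers, the Arp2/3 complex and formins start new filaments, cofilins and gelsolin take filaments apart, and alpha-actinins, villin and fascin bundle them. Tropomyosins, calponins and non-muscle myosin II turn bundles into contractile fibres, which talins, kindlins and LIM-domain proteins tie to integrins. Free monomers also hold back MRTFA and MRTFB, the coactivators of SRF, so many actin genes are known to be transcribed by a factor that the state of actin itself controls.

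Transcript levels were measured in Hep-3B and Huh7, established human hepatoma lines. Cells in medium with 10% serum were given lentivirus (multiplicity of infection 2) and, after 48 hours, selected with puromycin. The virus of the control groups carried shLuc, a short hairpin RNA named for luciferase, which human cells lack, and that of the knockdown groups carried shKLHL23, a hairpin against KLHL23, one of the Kelch-like proteins. The series title sets KLHL23 in the context of epithelial-mesenchymal transition and metastasis. There were 4 groups of 2 arrays, numbered 1 and 3 in each group: Hep-3B shLuc, Hep-3B shKLHL23, Huh7 shLuc and Huh7 shKLHL23. All 4 groups therefore share infection and puromycin selection. Both lines have the same name for the knockdown hairpin, so loss of KLHL23 and effects of that hairpin on other transcripts cannot be told apart. No label states that the arrays of a group were separate cultures, and p-values then cover only the spread between arrays, which may be technical.

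SRF binds the CArG box, a 10-base element with a pair of C, a run of A and T and a pair of G, which has the same form on both strands. Within the 250 bases before a RefSeq transcription start (GRCh38.p14), a CArG box was found in 394 of 27305 genes (1.44%) and in 407 of 35116 promoters (1.16%). Of the 49 measured genes, 41 had a promoter in that table and 7 of these held a match (17.1%), among them ACTA1, ACTG2, CNN2, FHL2, SRF and TPM4. The sequences of 4 genes that passed the test in Huh7 knockdown are shown: ACTA1, CNN2 and TPM4 rose there, and SRF itself fell. Each line gives the 200 bases that end at the base before the start, 5′ to 3′ on the gene's strand, with the CArG box in capitals. ACTA1 lies at chr1:229434095-229434294 (minus strand), CNN2 at chr19:1026408-1026607 (plus strand), TPM4 at chr19:16067338-16067537 (plus strand) and SRF at chr6:43171069-43171268 (plus strand).
ACTA1: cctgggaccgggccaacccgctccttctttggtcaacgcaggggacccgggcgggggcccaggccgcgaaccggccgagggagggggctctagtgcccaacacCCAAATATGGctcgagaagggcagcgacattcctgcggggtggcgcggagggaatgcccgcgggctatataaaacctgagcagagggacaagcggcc
CNN2: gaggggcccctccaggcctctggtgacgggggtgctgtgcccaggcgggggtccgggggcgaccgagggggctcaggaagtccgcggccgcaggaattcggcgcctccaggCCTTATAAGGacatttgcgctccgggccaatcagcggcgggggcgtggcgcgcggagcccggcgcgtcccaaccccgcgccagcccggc
TPM4: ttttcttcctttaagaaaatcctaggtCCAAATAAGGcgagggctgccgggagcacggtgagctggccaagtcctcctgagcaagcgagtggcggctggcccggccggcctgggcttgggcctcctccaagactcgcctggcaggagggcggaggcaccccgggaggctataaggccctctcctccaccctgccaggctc
SRF: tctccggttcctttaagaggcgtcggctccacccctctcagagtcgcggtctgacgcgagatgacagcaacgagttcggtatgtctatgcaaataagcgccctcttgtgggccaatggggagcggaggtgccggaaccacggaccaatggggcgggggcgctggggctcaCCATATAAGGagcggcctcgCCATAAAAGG

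The boxes of ACTA1 and CNN2 begin 97 and 89 bases before the start, and that of TPM4 begins 173 bases before it. SRF has a pair of boxes next to its own start, beginning 30 and 10 bases before it. In the table, 1 of 3 starts of TPM4 and 1 of 2 of SRF have a match. Among the genes that rose in Huh7 knockdown, 4 of 16 with a promoter held the box (25%), among those that fell 1 of 3 did (33.3%), and among the measured genes that were not called there, 2 of 22 did (9.09%). A match describes these letters and does not show that SRF binds there.

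The values are log2 expression levels, so a difference of 1 is a doubling, and each array's lower quartile over all probe sets lay between 3.08 and 3.12 and its median between 4.56 and 4.60. Over the 49 genes the SD of the difference between the replicates of a group was 0.0959 in Hep-3B control and 0.0897 in Huh7 control, against 0.215 and 0.216 in the knockdown groups. KLHL23 was at 7.81 and 7.84 in Hep-3B control and at 7.21 and 6.15 in Hep-3B knockdown, a difference of -1.14 that did not pass (SE 0.27, limma adjusted p = 0.0833). In Huh7 it was at 7.89 and 7.87 in control and at 5.78 and 5.88 in knockdown, and it fell by 2.05 (SE 0.27, limma adjusted p = 0.00363). The 10 measured hepatocyte markers lay above the upper quartile of all 8 arrays, and 1 of them, TTR, was called higher in each knockdown comparison (1.58 in Hep-3B and 1.23 in Huh7). None of the 8 smooth muscle markers, of which ACTG2 and CNN1 are also genes of the list, or 8 fibroblast markers did so, and 0 members of either list were called in a knockdown comparison. The mean level of the smooth muscle list lay between 4.59 and 4.74 over the arrays and that of the fibroblast list between 4.16 and 4.45. Among 5 cholangiocyte markers 2 were called higher and 1 lower in Huh7 knockdown, with KRT19, a keratin of bile duct cells, at 8.02 and 8.26 in Huh7 control and at 9.67 and 9.26 in Huh7 knockdown. Its part in the results was not tested. In a lysate of many cells, fewer cells of a type and less RNA per cell cannot be told apart.

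A test of each gene was made with limma over all 19775 genes and adjusted by Benjamini-Hochberg, and a gene was called at an adjusted p under 0.05. In Huh7 knockdown 23 of the 49 genes were called, 20 higher and 3 lower, where 13.5% of all genes were called, 5.75% higher and 7.73% lower. The median difference of the 49 genes was 0.24, against -0.00 over all genes. Most of the 49 are bright: 43 lay at or above the median gene, of which 18 were called higher and 3 lower, while 9.97% of all genes as bright were called higher and 12.8% lower. In 30 of the 49 genes both Huh7 knockdown arrays lay above both controls, and in 7 below them, beside 26.5% and 27.2% of all genes.

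Hep-3B knockdown gave 2 calls among the 49 genes, CFL2 higher and ACTA1 lower, where 0.693% of all genes were called, 0.536% higher and 0.157% lower. With genes dimmer than the median gene left out of the test, 3 of the 43 left were called, beside 6.75% of all genes kept. At an unadjusted p under 0.05 there were 11 of the 49 in Hep-3B, beside 17.7% of all genes, and 29 in Huh7, beside 27.5%. The median difference in Hep-3B was 0.01 over the 49 genes and 0.02 over all genes. Both knockdown arrays lay above both controls in 16 genes and below them in 14, beside 29.4% and 23.5% of all genes. ACTA1 was the gene called in both lines, and its directions were opposite. The differences had the same sign in both lines in 30 of the 49 genes (61.2%), against 60.6% of all genes. The number called in Hep-3B fell without either Hep-3B control array, without Hep-3B knockdown replicate 3 and without each Huh7 array in turn. It rose without Hep-3B knockdown replicate 1. In Huh7 the number called fell without either control array and without knockdown replicate 1. The number called over all genes moved in the same direction in each of these runs, so these shifts were not particular to the list.

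**Figure D1:**
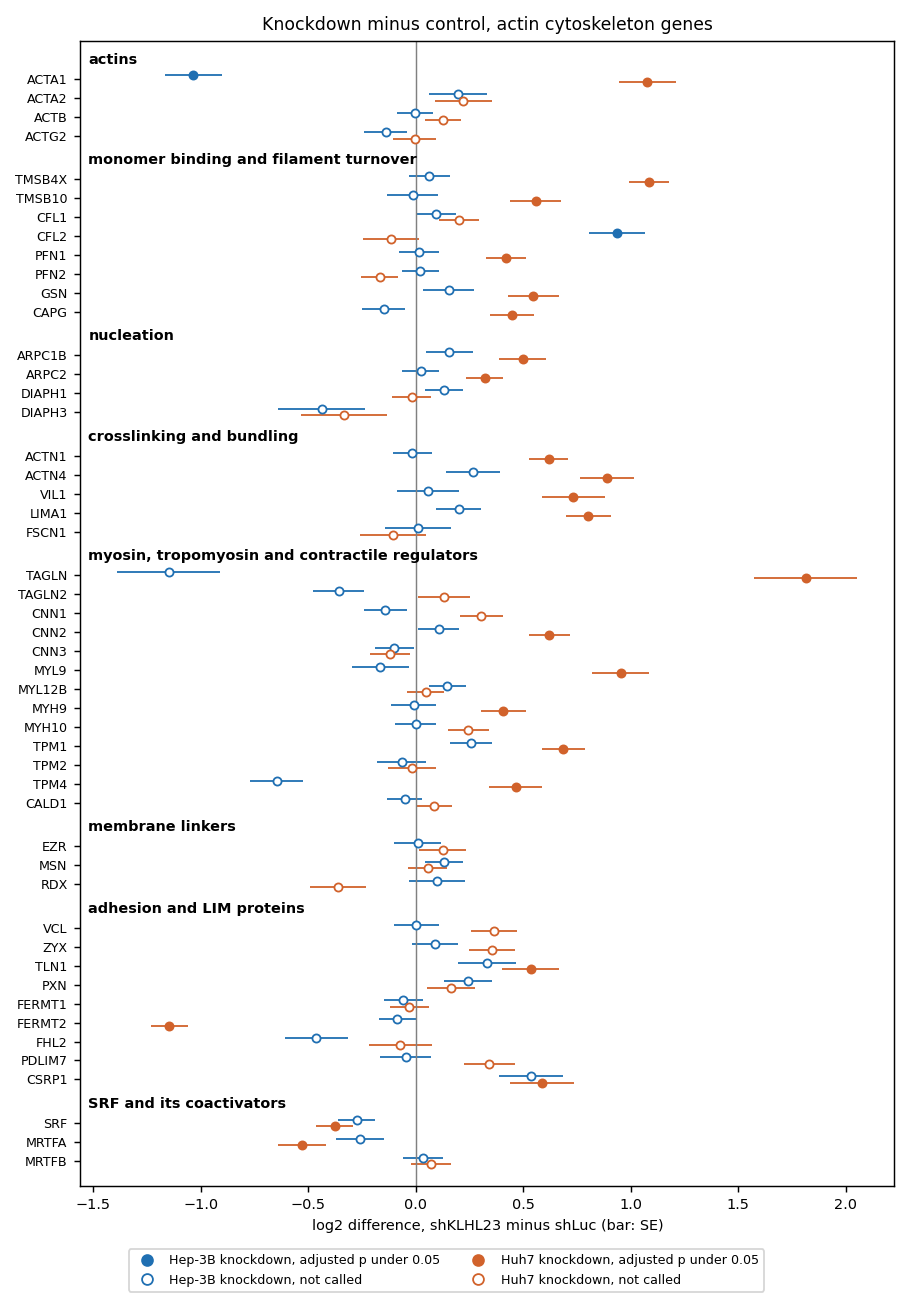
Log2 difference between shKLHL23 and shLuc arrays for the 49 genes, by role, in Hep-3B (blue) and Huh7 (orange), each with 2 arrays per group. Points are the fitted differences, bars their moderated standard errors, and filled points passed at an adjusted p under 0.05. Huh7 has 20 filled points right of 0 and 3 left of it, and Hep-3B has 1 on each side.

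The probe sets at 3 places along ACTB, a check of RNA integrity built into the array, differed between groups. The 3′ level minus the 5′ level was 0.87 and 0.83 in Huh7 control and 0.52 and 0.55 in Huh7 knockdown, and 0.44 and 0.54 in Hep-3B control and 0.74 and 0.75 in Hep-3B knockdown. The groups did not overlap in either line, and the knockdown arrays were lower than control in Huh7 and higher in Hep-3B. The part of this shift in the results below was not tested.

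Among the 4 measured actins, ACTA1 moved in both lines. ACTA1, the alpha-actin of skeletal muscle, lay at 4.54 and 4.63 in Huh7 control and at 5.61 and 5.72 in Huh7 knockdown. It lay at 6.69 and 6.56 in Hep-3B control and at 5.78 and 5.39 in Hep-3B knockdown. The arrays of the groups did not overlap in either line, and the knockdown groups of the lines had close means, 5.66 in Huh7 and 5.59 in Hep-3B. ACTA1 rose by 1.08 in Huh7 (SE 0.13, limma adjusted p = 0.00284) and fell by 1.04 in Hep-3B (SE 0.13, limma adjusted p = 0.021). The Huh7 control arrays lay near the array median, with no background call, so the size of the rise is uncertain. The Hep-3B call was lost without Hep-3B control replicate 1 (-0.97) or 3 (-1.10), Hep-3B knockdown replicate 3 (-0.84) and either Huh7 control array (-1.04 each). The Huh7 call held under all 17 alternatives run.

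ACTB, a cytoplasmic actin of all cells, lay at 13.36 and 13.36 in Hep-3B control, 13.33 and 13.38 in Hep-3B knockdown, 13.14 and 13.20 in Huh7 control and 13.31 and 13.29 in Huh7 knockdown. Its difference in Hep-3B was -0.00 (95% interval -0.20 to 0.19) and in Huh7 0.13 (-0.07 to 0.32), and neither passed. The smooth muscle alpha-actin ACTA2 was bright in Hep-3B, at 9.19 and 9.06 in control, and near the array median in Huh7, at 4.68 and 4.75. Its knockdown arrays lay at 9.29 and 9.36 in Hep-3B and at 5.14 and 4.73 in Huh7, and neither knockdown difference passed (0.20 and 0.22). ACTG2, an actin of enteric smooth muscle, lay between 4.51 and 4.81 on all 8 arrays and was called in no comparison.

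Proteins that hold monomers or turn filaments over included 5 of 8 genes that rose in Huh7 and 1 that rose in Hep-3B, beside 5.75% and 0.536% of all genes. TMSB4X, thymosin beta-4, which sequesters actin monomers, lay at 10.48 and 10.38 in Huh7 control and at 11.51 and 11.52 in Huh7 knockdown. It rose by 1.09 (SE 0.09, limma adjusted p = 0.000822), a 2.12-fold change that held under all 17 alternatives. In Hep-3B it lay at 8.60 and 8.51 in control and at 8.55 and 8.69 in knockdown, which overlap. Thymosin beta-10, TMSB10, rose from 12.03 and 12.03 to 12.76 and 12.42 in Huh7, by 0.56 (SE 0.12, limma adjusted p = 0.0185), and in Hep-3B all 4 arrays lay between 12.86 and 12.95. Profilin 1, PFN1, which returns monomers to growing filament ends, rose from 11.32 and 11.42 to 11.83 and 11.75, by 0.42 (SE 0.09, limma adjusted p = 0.0218). Its relative PFN2 was at -0.17 in Huh7 and was not called.

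Gelsolin, GSN, which severs and caps filaments, lay at 7.32 and 7.50 in Huh7 control and at 8.08 and 7.83 in Huh7 knockdown, a rise of 0.55 (SE 0.12, limma adjusted p = 0.0193). The capping protein CAPG rose from 6.63 and 6.70 to 7.20 and 7.02, by 0.45 (SE 0.10, limma adjusted p = 0.0229). For these 2 genes the knockdown arrays lay above the controls in Huh7, and in Hep-3B their differences were 0.15 and -0.15 with no call. Without Huh7 control replicate 1, control replicate 3 and knockdown replicate 1 the Huh7 calls were lost for TMSB10 (0.56, 0.56 and 0.38), PFN1 (0.37, 0.47 and 0.38), GSN (0.46, 0.63 and 0.42) and CAPG (0.41, 0.48 and 0.36).

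The cofilins sever aged filaments, and CFL2, the form best known from muscle, was the gene of the list that rose in Hep-3B. It lay at 8.75 and 8.69 in Hep-3B control and at 9.45 and 9.85 in Hep-3B knockdown, with no overlap, and rose by 0.93 (SE 0.13, limma adjusted p = 0.0261). Huh7 was already at that level, with 9.62 and 9.62 in control and 9.55 and 9.46 in knockdown, and its difference of -0.12 did not pass. CFL1, the abundant non-muscle cofilin, lay between 12.41 and 12.82 on all arrays and was at 0.10 in Hep-3B and 0.20 in Huh7, with no call. The CFL2 call in Hep-3B was lost without Hep-3B control replicate 1 (0.97) or 3 (0.90), Hep-3B knockdown replicate 3 (0.73) and each of the 4 Huh7 arrays in turn (0.93 each).

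Of the 4 nucleation genes, both subunits of the Arp2/3 complex, which starts branches on existing filaments, rose in Huh7, where 5.75% of all genes did. ARPC1B lay at 9.79 and 9.89 in Huh7 control and at 10.45 and 10.22 in knockdown and rose by 0.50 (SE 0.11, limma adjusted p = 0.02). ARPC2 lay at 11.04 and 11.02 and at 11.40 and 11.30 and rose by 0.32 (SE 0.09, limma adjusted p = 0.0439). In Hep-3B they were at 0.16 and 0.02 and were not called. The formins, which grow unbranched filaments, did not pass in either line: DIAPH1 was at 0.13 in Hep-3B and -0.02 in Huh7, and DIAPH3 at -0.44 and -0.33. The Huh7 knockdown arrays of DIAPH3 were uneven, at 7.57 and 8.29. ARPC1B lost its call without Huh7 control replicate 1 (0.45), control replicate 3 (0.55) or knockdown replicate 1 (0.39). ARPC2 lost it in these cases too (0.33, 0.31 and 0.27) and without either Hep-3B control array (0.32 each), and kept it in 5 of 17 alternatives.

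Crosslinking and bundling proteins were the role with the largest share called in Huh7, 4 of 5 genes, all higher, beside 5.75% of all genes. ACTN4, a non-muscle alpha-actinin, lay at 9.09 and 9.17 in Huh7 control and at 10.09 and 9.94 in Huh7 knockdown, a rise of 0.89 (SE 0.13, limma adjusted p = 0.0045). Its Hep-3B arrays lay at 9.54 and 9.46 in control and at 9.60 and 9.94 in knockdown, with no call (0.27). ACTN1, the other non-muscle alpha-actinin, rose in Huh7 from 10.26 and 10.31 to 10.98 and 10.83, by 0.62 (SE 0.09, limma adjusted p = 0.00532). In Hep-3B all 4 arrays of ACTN1 lay between 10.69 and 10.74.

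LIMA1, which binds along filaments and holds them together, lay at 7.94 and 8.03 in Huh7 control and at 8.69 and 8.90 in Huh7 knockdown and rose by 0.80 (SE 0.10, limma adjusted p = 0.00357). Villin, VIL1, the bundler of microvilli, lay at 9.08 and 9.18 and at 10.11 and 9.62 and rose by 0.73 (SE 0.15, limma adjusted p = 0.0147), with replicates that differed more than in control. In Hep-3B LIMA1 lay at 8.62 and 8.68 in control and at 8.78 and 8.92 in knockdown, and VIL1 between 10.45 and 10.56 on all 4 arrays. Fascin, FSCN1, which bundles the filaments of filopodia, was at 0.01 in Hep-3B and -0.10 in Huh7 and was not called. The call of ACTN1 was lost without Huh7 control replicate 1 (0.59) and that of VIL1 without Huh7 control replicate 1 (0.69) or 3 (0.78). LIMA1 and ACTN4 kept theirs under every alternative run.

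Myosin, tropomyosin and contractile regulators held 6 of 13 genes that rose in Huh7 and 0 called in Hep-3B, where 4 were under 0.05 unadjusted, beside 5.75% higher in Huh7, 0.693% called in Hep-3B and 17.7% unadjusted in Hep-3B over all genes. TAGLN, transgelin, an actin-binding protein of smooth muscle and stress fibres, had the largest rise of the 49 genes. It lay at 7.34 and 7.66 in Huh7 control and at 9.47 and 9.16 in Huh7 knockdown, and rose by 1.81 (SE 0.24, limma adjusted p = 0.00368), or 3.52-fold. In Hep-3B it lay at 9.27 and 9.18 in control and at 8.48 and 7.66 in knockdown. Those groups did not overlap either, but the knockdown arrays were far apart, and the difference of -1.15 did not pass (SE 0.24, limma adjusted p = 0.0699). TAGLN2, its broadly expressed relative, was at -0.36 in Hep-3B and 0.13 in Huh7, with no call.

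MYL9, a regulatory light chain of myosin II, lay at 5.48 and 5.45 in Huh7 control and at 6.58 and 6.26 in Huh7 knockdown and rose by 0.95 (SE 0.13, limma adjusted p = 0.00442). In Hep-3B it was dim, at 4.87 and 4.57 in control and at 4.55 and 4.57 in knockdown. The heavy chain MYH9 of non-muscle myosin IIA rose in Huh7 from 8.30 and 8.42 to 8.88 and 8.66, by 0.41 (SE 0.10, limma adjusted p = 0.0359), and in Hep-3B its 4 arrays lay between 9.13 and 9.20. MYH10, the heavy chain of myosin IIB, and the light chain MYL12B were at 0.24 and 0.05 in Huh7 and were not called in either line.

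Tropomyosins lie along filaments and decide which proteins may bind them. TPM1 lay at 9.44 and 9.42 in Huh7 control and at 10.23 and 10.00 in Huh7 knockdown, a rise of 0.69 (SE 0.10, limma adjusted p = 0.00468), and at 9.28 and 9.30 and 9.55 and 9.54 in the corresponding Hep-3B groups (0.26, not called). TPM4 lay at 8.60 and 8.60 in Huh7 control and at 9.14 and 8.99 in Huh7 knockdown, a rise of 0.46 (SE 0.12, limma adjusted p = 0.0396). In Hep-3B it lay at 9.11 and 9.12 in control and at 8.64 and 8.29 in knockdown, lower without overlap, and the difference of -0.65 did not pass (SE 0.12, limma adjusted p = 0.0612). TPM2, a muscle tropomyosin, lay between 5.03 and 5.37 on all arrays with no call.

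Calponins and caldesmon restrain myosin on actin. CNN2 rose in Huh7 from 8.30 and 8.37 to 8.95 and 8.96, by 0.62 (SE 0.10, limma adjusted p = 0.00622), and lay at 7.87 and 7.77 in Hep-3B control and at 7.84 and 8.01 in Hep-3B knockdown. CNN1, the calponin of smooth muscle, stayed under the array median on all 8 arrays (3.90 to 4.46), and CNN3 (-0.10 in Hep-3B and -0.12 in Huh7) and CALD1 (-0.05 and 0.09) were not called in either line. All 11 probe sets of CALD1 were below 0 in Hep-3B (-0.71 to -0.05), and 7 of 11 were above 0 in Huh7 (-0.25 to 0.33), with 0 called in either line. Of the contractile genes that rose in Huh7, CNN2 lost its call without Huh7 control replicate 1 (0.59). MYH9 lost it without either Hep-3B control array (0.41 each), Huh7 control replicate 1 (0.35) or 3 (0.47) and Huh7 knockdown replicate 1 (0.29). TPM4 lost it without either Hep-3B control array (0.46 each) and without each of the 4 Huh7 arrays in turn (0.39 to 0.54).

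**Figure D2:**
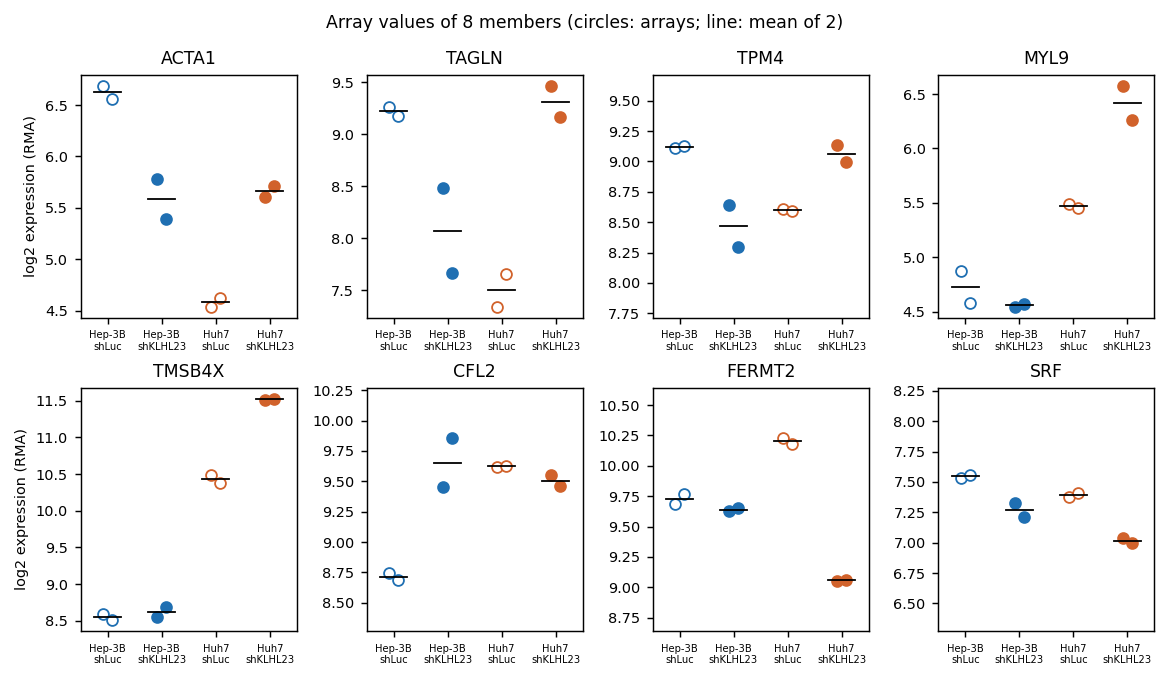
Log2 expression on each of the 8 arrays (circles; 2 per group, open for shLuc and filled for shKLHL23) with the group mean (line) for 8 genes, each panel with its own vertical range. In ACTA1, TAGLN and TPM4 knockdown arrays lie below control in Hep-3B and above it in Huh7. CFL2 differs in Hep-3B, MYL9, TMSB4X and FERMT2 differ in Huh7, and the SRF knockdown arrays lie below control in both lines.

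The membrane linkers ezrin, moesin and radixin gave no call in either line. EZR was at 0.01 in Hep-3B and 0.12 in Huh7. Of its 5 probe sets 1 was above 0 in Hep-3B (-0.57 to 0.01) and 4 in Huh7 (-0.12 to 0.24), with 0 called in either line. RDX lay at 9.64 and 9.63 in Huh7 control and at 9.07 and 9.47 in Huh7 knockdown, a difference of -0.36 that did not pass (limma adjusted p = 0.107). MSN lay between 3.52 and 3.86 on all arrays, under their medians.

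Among 9 adhesion and LIM-domain proteins 2 rose and 1 fell in Huh7, and 0 were called in Hep-3B, where 3 were under 0.05 unadjusted. Over all genes the shares were 5.75% higher and 7.73% lower in Huh7, and 17.7% unadjusted in Hep-3B. FERMT2, kindlin-2, which binds integrin tails and helps to activate them, lay at 10.23 and 10.18 in Huh7 control and at 9.05 and 9.06 in Huh7 knockdown. It fell by 1.15 (SE 0.09, limma adjusted p = 0.000503), or 2.21-fold, and kept the call under all 17 alternatives. In Hep-3B it lay at 9.68 and 9.77 in control and at 9.63 and 9.65 in knockdown, and the difference of -0.09 did not pass. The kindlin of epithelia, FERMT1, was at -0.06 in Hep-3B and -0.03 in Huh7.

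Talin, TLN1, which ties integrins to actin and works with kindlins, rose in Huh7 from 7.04 and 7.14 to 7.76 and 7.49, by 0.53 (SE 0.13, limma adjusted p = 0.0323). CSRP1, a LIM protein of actin bundles, rose in Huh7 from 9.10 and 9.10 to 9.85 and 9.53, by 0.59 (SE 0.15, limma adjusted p = 0.0352). In Hep-3B CSRP1 lay at 8.82 and 8.70 in control and at 9.10 and 9.49 in knockdown, higher without overlap, but at 0.54 it did not pass (limma adjusted p = 0.116). TLN1 lost its Huh7 call without Huh7 control replicate 1 (0.48), control replicate 3 (0.59) or knockdown replicate 1 (0.40), and CSRP1 lost it in the same cases (0.59, 0.59 and 0.43) and without either Hep-3B control array (0.59 each).

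Vinculin (VCL), zyxin (ZYX) and PDLIM7, which sit at the filament ends of adhesions or along stress fibres, were at 0.36, 0.35 and 0.34 in Huh7. Their knockdown arrays lay above the controls without overlap, and none passed (limma adjusted p = 0.054, 0.0644 and 0.0993). The scaffold paxillin, PXN, was at 0.24 in Hep-3B and 0.16 in Huh7, and FHL2, a LIM-only coregulator of transcription, at -0.46 and -0.07, with no call.

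SRF and its coactivator MRTFA fell in Huh7, opposite in direction to 20 genes of the list. SRF lay at 7.38 and 7.41 in Huh7 control and at 7.03 and 6.99 in Huh7 knockdown, and fell by 0.38 (SE 0.09, limma adjusted p = 0.0246). MRTFA lay at 6.58 and 6.49 and at 6.11 and 5.91, and fell by 0.53 (SE 0.11, limma adjusted p = 0.0182). In Hep-3B the arrays of both were lower in knockdown without overlap, SRF at 7.54 and 7.55 against 7.32 and 7.21 and MRTFA at 7.13 and 7.02 against 6.91 and 6.71. Those differences were -0.27 (limma adjusted p = 0.152) and -0.26 (limma adjusted p = 0.277), above the threshold. MRTFB was at 0.03 in Hep-3B and 0.07 in Huh7. The Huh7 call of SRF was lost without either Hep-3B control array (-0.38 each) and without each of the 4 Huh7 arrays in turn (-0.36 to -0.40), and that of MRTFA without Huh7 control replicate 1 (-0.48), control replicate 3 (-0.58) or knockdown replicate 3 (-0.43).

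Several genes have more than 1 probe set, and these were tested over all 54675 probe sets. All 3 probe sets of FERMT2 fell in Huh7 (-1.15, -1.07 and -0.76), both of SRF fell (-0.38 and -0.72), and all 3 of LIMA1 rose (0.80, 1.07 and 0.87). In Hep-3B all 3 of CFL2 rose (0.93, 1.14 and 0.84). The dimmest probe set of LIMA1 fell in Hep-3B (-0.69, limma adjusted p = 0.0204 over all probe sets), where the brighter pair was at 0.20 and 0.00. Villin rose in Huh7 on 3 of 4 probe sets, ACTN1 on 3 of 4 and TPM1 on 3 of 6.

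Other genes disagreed between probe sets. Of the 3 probe sets of TAGLN, the bright pair rose in Huh7 by 1.81 and 1.61, and the third, at a mean level of 5.74, was at 0.09. In Hep-3B that pair was at -1.15 and -1.28 and missed the threshold over all probe sets (for the first, limma adjusted p = 0.0575, and for the second, limma adjusted p = 0.0502). The dim second probe set of MYL9 was at -0.15 in Huh7, against the rise of 0.95 on the brighter one. For TPM4 the second brightest rose in Huh7 by 0.65, and the brightest, at 0.46, did not pass over all probe sets (limma adjusted p = 0.0561). Of 7 probe sets of GSN 2 rose, and of 5 of MRTFA 1 fell. CFL1 was not called on its brightest probe set, and a dimmer one rose in Huh7 by 0.50. Of 7 probe sets of PDLIM7, not called in Huh7 in the test of 1 probe set per gene, 2 rose there, and all 7 were at 0.04 to 0.49. MYH9, on its 1 probe set, did not pass over all probe sets (limma adjusted p = 0.055). Of the 6 ACTB probe sets, that at the 5′ end rose in Huh7 by 0.45 (limma adjusted p = 0.022 over all probe sets), and the other 5, at 0.13 to 0.30, did not pass. With the probe sets of a gene averaged, the Huh7 calls of MYL9 (0.40), GSN (0.19), TLN1 (0.26), MRTFA (-0.14), TPM4 (0.38) and ARPC2 (0.25) were lost.

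**Figure D3:**
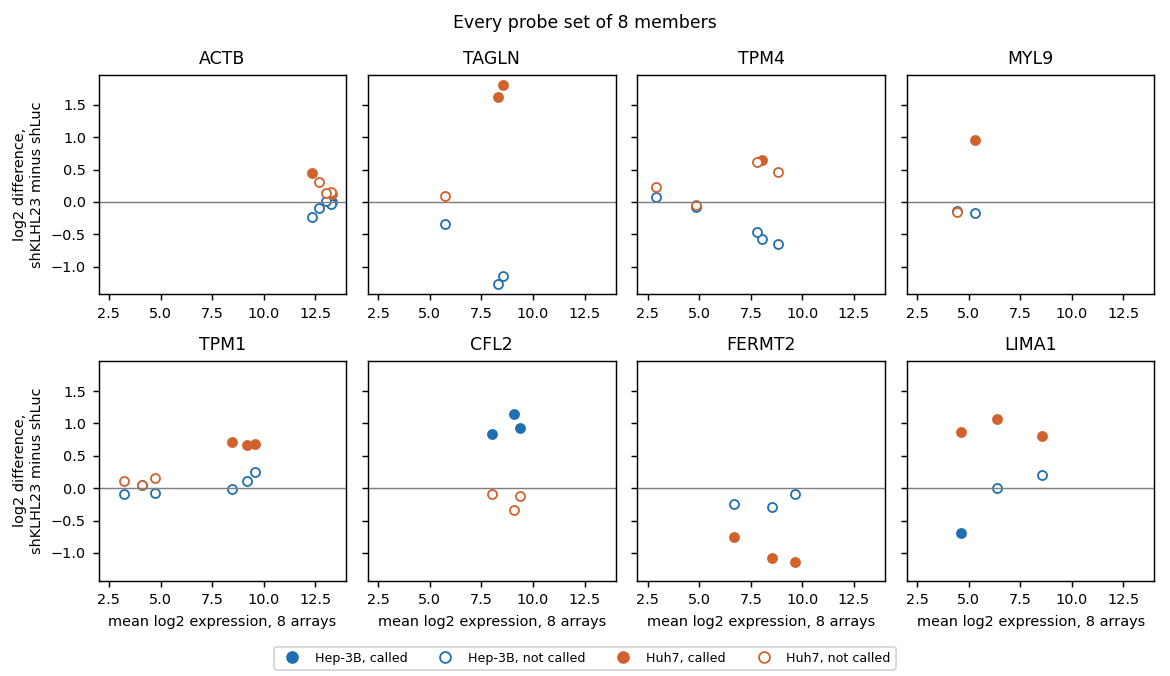
Every probe set of 8 genes, by mean log2 expression over the 8 arrays and log2 difference between shKLHL23 and shLuc in Hep-3B (blue) and Huh7 (orange), filled where the adjusted p over all probe sets was under 0.05. The 3 probe sets of FERMT2 and LIMA1 fall or rise together in Huh7, and the dim ones of TAGLN, MYL9 and TPM1 stay near 0.

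The difference between the knockdown effects of the 2 lines was tested itself. It passed for 7 of the 49 genes, 5 higher in Huh7 and 2 lower, where 1.26% of all genes passed, 0.445% higher and 0.814% lower, and 24 of the 49 were under 0.05 unadjusted, beside 14.7% of all genes. The median over the 49 genes was 0.25, against -0.03 over all genes. TAGLN differed by 2.96 (SE 0.34, limma adjusted p = 0.0098) and ACTA1 by 2.11 (SE 0.19, limma adjusted p = 0.00837), both higher in Huh7 knockdown and lower in Hep-3B knockdown than in control. TPM4 had the same pattern of arrays, with a difference of 1.11 (SE 0.17, limma adjusted p = 0.0324). MYL9 differed by 1.12 (SE 0.19, limma adjusted p = 0.0396) and TMSB4X by 1.02 (SE 0.13, limma adjusted p = 0.0162), where the Hep-3B arrays of control and knockdown were close. FERMT2, at -1.06 (SE 0.12, limma adjusted p = 0.0098), differed through its fall in Huh7, and CFL2, at -1.05 (SE 0.18, limma adjusted p = 0.0413), through its rise in Hep-3B. KLHL23 itself fell by 2.05 in Huh7 and was at -1.14 in Hep-3B, where it did not pass. The difference of -0.91 between the lines did not pass either (limma adjusted p = 0.316). The response of a line and the depth of its knockdown therefore cannot be told apart in this comparison.

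Of the 23 genes called in Huh7, only ACTA1, TAGLN, MYL9, TPM4, TMSB4X and FERMT2 passed the test of the difference on the brightest probe set. SRF, ACTN4, ACTN1 and LIMA1, called in Huh7 alone, were among those that did not. The difference was -0.10 for SRF (95% interval -0.38 to 0.18), 0.62 for ACTN4 (0.22 to 1.03), 0.63 for ACTN1 (0.34 to 0.93) and 0.60 for LIMA1 (0.27 to 0.94). In the test of all probe sets it passed on 2 of 3 probe sets of LIMA1 (range of the 3, 0.60 to 1.55). It also passed on 1 of 4 of ACTN1 (range of the 4, -0.19 to 0.79), 1 of 4 of VIL1 (0.59 to 1.29) and 1 of 6 of TPM1 (0.00 to 0.73). The number of genes that differed fell without each control array in turn and without Hep-3B knockdown replicate 3 or Huh7 knockdown replicate 1. The number over all genes fell in the same runs. ACTA1 passed under all 16 alternatives. TAGLN did not pass without Hep-3B control replicate 1 (2.92) or Huh7 control replicates 1 and 3 (2.81 and 3.12). On its dim probe set, left when _x_at and _s_at probe sets were dropped, the TAGLN difference was 0.43 and did not pass. Neither FERMT2 (-1.02, -1.10, -1.03 and -1.09) nor TMSB4X (0.98, 1.06, 1.07 and 0.97) passed when any control array of Hep-3B or Huh7, in that order, was left out.

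The other 3 were less firm. TPM4 did not pass when each control array was left out in turn (1.11 to 1.12), nor without Hep-3B knockdown replicate 3 (0.94) or Huh7 knockdown replicate 1 (1.04), nor with its probe sets averaged (0.72). CFL2 passed when Hep-3B knockdown replicate 1 was left out and not when any other array was (-1.10 to -0.85). MYL9 passed when Huh7 knockdown replicate 3 was left out and not when any other array was (0.96 to 1.27), nor with its probe sets averaged (0.55).

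The control groups give the level from which each line started, and they share their arrays with the knockdown comparisons, so the values stand side by side with no test across them. Between Huh7 and Hep-3B control 32 of the 49 genes differed, 9 higher and 23 lower in Huh7, where 32.7% of all genes differed, 17.7% higher and 14.9% lower. With genes dimmer than the median gene left out of the test, 32 of the 43 left differed, beside 57.5% of all genes kept. In 16 genes both Huh7 arrays lay above both Hep-3B arrays and in 29 below, beside 35.5% and 31.6% of all genes. The median difference was -0.21, against 0.02 over all genes. ACTA2 had the largest difference on its brightest probe set (-4.41, SE 0.13, limma adjusted p = 9.4e-08), where the level in Huh7 was near the array median and the size is therefore uncertain. GSN (-2.76, SE 0.12, limma adjusted p = 5.81e-07), FSCN1 (-2.35, SE 0.15, limma adjusted p = 7.34e-06) and ACTA1 (-2.04, SE 0.13, limma adjusted p = 7.26e-06) were lower too. With the probe sets of a gene averaged, ACTA2 was at -1.71 and GSN at -0.88, and without _x_at and _s_at probe sets GSN was at -0.67 and TAGLN, called at -1.72, was at -0.22 with no call. Both other ACTA2 probe sets were dim on all arrays and did not pass.

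FSCN1 lay at 8.47 and 8.31 in Hep-3B control and at 5.87 and 6.21 in Huh7 control. TAGLN was at -1.72, MRTFB at -1.39 and VIL1 at -1.34 in Huh7 relative to Hep-3B. Of the linkers EZR (-0.80) and RDX (-0.93) were lower in Huh7, and MSN, at -0.11, was not called. The other genes lower in Huh7 control were TMSB10 (-0.87), MYH9 (-0.82), FHL2 (-0.69), LIMA1 (-0.66), MYL12B (-0.63), MYH10 (-0.56), PXN (-0.55), MRTFA (-0.54), TPM4 (-0.52), ACTN1 (-0.44), PFN2 (-0.44), ARPC2 (-0.44), PDLIM7 (-0.43) and PFN1 (-0.33).

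Higher in Huh7 control were TMSB4X (1.87, SE 0.09, limma adjusted p = 1.51e-06), CFL2 (0.91), TAGLN2 (0.76), MYL9 (0.74), DIAPH1 (0.68), CNN2 (0.51), FERMT2 (0.48), FERMT1 (0.44) and TLN1 (0.41). The thymosins thus stood on opposite sides, TMSB4X higher and TMSB10 lower in Huh7. Of the 32 calls, 23 held under all alternatives run. Leaving out each of the 4 control arrays in turn ended the calls of TPM4 (-0.52, -0.51, -0.52 and -0.51) and PFN1 (-0.29, -0.36, -0.28 and -0.38). TLN1 lost its call without Hep-3B control replicate 3 or Huh7 control replicates 1 and 3 (0.29, 0.47 and 0.36), PDLIM7 without Hep-3B control replicate 3 or Huh7 control replicate 1 (-0.32 and -0.33) and MRTFA without Hep-3B control replicate 1 (-0.48). TLN1 and DIAPH1 turned sign when probe sets of the _x_at and _s_at classes, which may bind several transcripts, were left out. In that setting MYL9 (0.03), EZR (-0.30) and PDLIM7 (-0.04) also lost their calls. TPM4 lost its call there and with its probe sets averaged, and over the alternatives its difference ranged from -0.52 to -0.05. MRTFA lost its call with its probe sets averaged (-0.13).

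**Figure D4:**
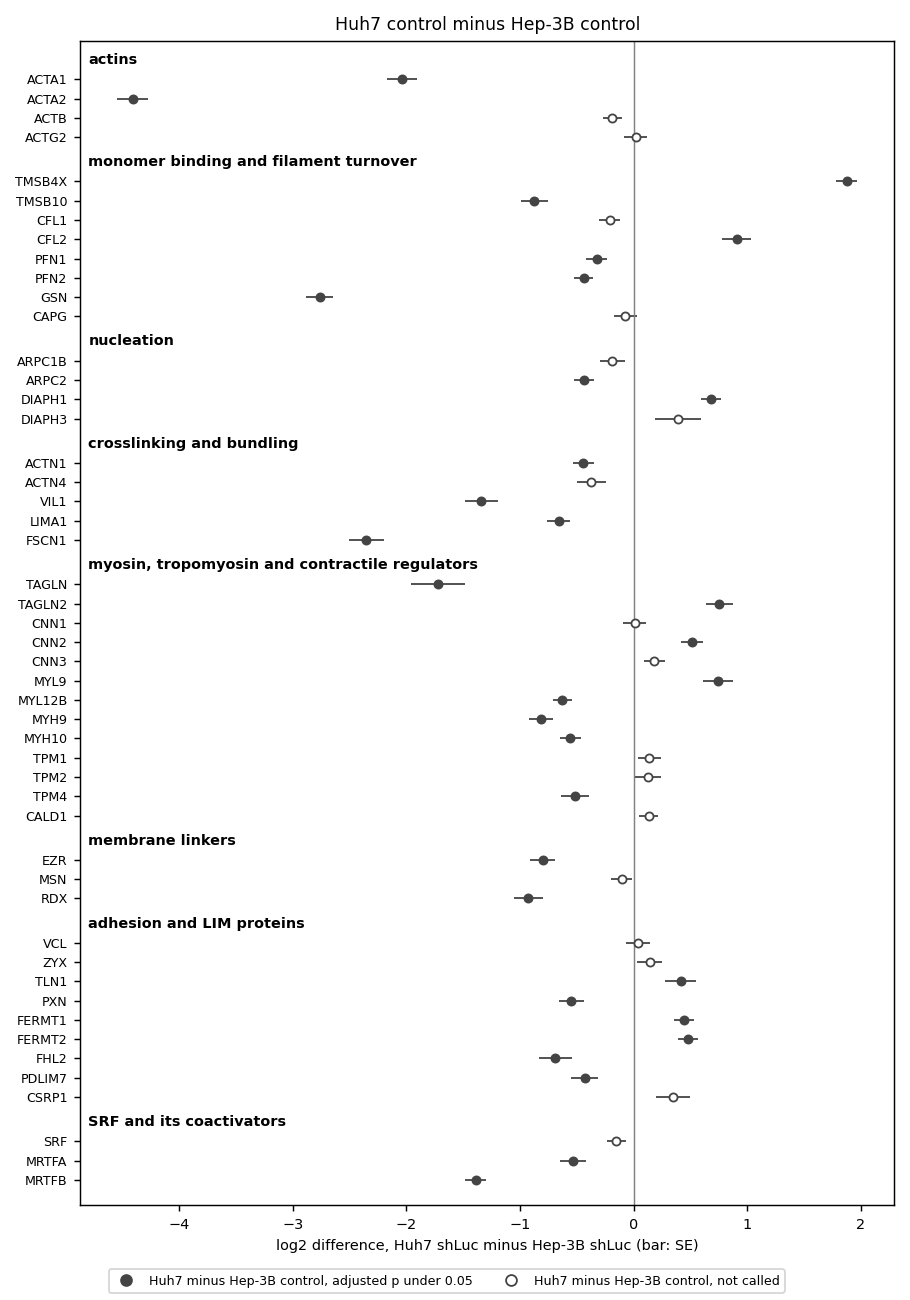
Log2 difference between Huh7 shLuc and Hep-3B shLuc arrays for the 49 genes, by role (2 arrays per group). Points are fitted differences, bars moderated standard errors, and filled points passed at an adjusted p under 0.05. ACTA2, GSN, FSCN1 and ACTA1 lie more than 2 below 0, and TMSB4X is the gene farthest above it.

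A wider set of 138 actin-pathway genes outside the list, of which 125 were measured, gave 20 higher and 9 lower calls in Huh7 (23.2% called, where 13.5% of all genes were, 5.75% higher and 7.73% lower, with a median of 0.10). Most of the 125 are bright too, and of all genes at or above the median gene 9.97% were called higher and 12.8% lower. With dimmer genes left out of the test, 43 of the 105 left were called, 30 higher and 13 lower, beside 34.1% of all genes kept. Higher and lower calls were 15 and 10 with median centring (beside 13.1% of all genes called) and 12 and 9 with all probe sets tested (10.7%). They were 18 and 8 with probe sets averaged (12%) and 29 and 13 with an intensity trend and robust eBayes (17.2%). With the compared arrays fitted alone they were 8 and 7 (7.98%). By limma 0 were called in Hep-3B, where 32 were under 0.05 unadjusted, beside 17.7% of all genes. With an intensity trend and robust eBayes 12 were called there, 3 higher and 9 lower, and with array weights 11, 2 higher and 9 lower. A replicate block gave 7, all lower, and leaving out dimmer genes gave 9 of 105, 2 higher and 7 lower. The shares of all genes were 4.3%, 3.39%, 2.14% and 6.75%, in that order. With a further quantile normalization, median centring or the compared arrays fitted alone, the number in Hep-3B stayed at 0. The total of 29 in Huh7 fell without either Huh7 control array and without Huh7 knockdown replicate 1. The 0 in Hep-3B rose without Hep-3B knockdown replicate 1. The number called over all genes moved in the same direction in each of these runs. Of 23 other genes of the Arp2/3 complex and its activators, 6 rose and 0 fell in Huh7, led by the subunits ARPC4 (0.49), ARPC5 (0.43) and ARPC3 (0.42). Of 26 capping, severing and crosslinking proteins 6 rose, among them the coronin CORO1B (0.53) and the twinfilin TWF1 (0.50), and the plastin PLS1, a bundler of microvilli, fell (-0.74). Of 14 other myosins, the light chain MYL6 (0.83) and MYO1D (1.17) rose, and MYO10, a motor of filopodia, fell (-1.48). Of 25 other adhesion and LIM proteins, LASP1 (0.87) and KANK2 (0.51) rose, and TES, a LIM protein of focal adhesions, fell (-0.87), so that 12% of this list was called, near the share of all genes.

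Of 15 other targets of SRF and its coactivators, 1 rose and 2 fell in Huh7 (20%, beside 13.5% of all genes). Vimentin, VIM, the intermediate filament protein of mesenchymal cells, had a mean of 8.97 ± 0.04 (SD, n = 2) in Huh7 control and of 10.55 ± 0.20 (SD, n = 2) in Huh7 knockdown, and rose by 1.58 (SE 0.16, limma adjusted p = 0.00165). In Hep-3B it was dim, at 4.70 and 4.88 in control and at 4.71 and 5.18 in knockdown, and the difference between lines passed (1.43, SE 0.23, limma adjusted p = 0.0356). AJUBA, a LIM protein of adherens junctions, lay at 10.45 and 10.44 in Huh7 control and at 8.52 and 8.51 in Huh7 knockdown and fell (-1.93, SE 0.17, limma adjusted p = 0.000813), and TUFT1 fell too (-0.64). In Hep-3B none of the 15 was called, 10 were under 0.05 unadjusted (beside 17.7% of all genes), and the median was -0.49. In 12 of the 15 both Hep-3B knockdown arrays lay below both controls, beside the 23.5% of all genes given above.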

How the data were processed

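The deposited values are log2 expression values of 54675 probe sets on 8 Affymetrix arrays, which the authors computed by RMA with Expression Console 1.2 of Affymetrix, as the submitters' processing notes list. RMA makes array distributions alike, shrinks changes of dim probe sets and hides a change in total RNA per cell. For other settings, nothing is given in the sources used here. The platform annotation paired 41097 probe sets with 1 symbol, 1801 with several and left 11777 unnamed. Symbols were checked against RefSeq (GRCh38.p14), which changed 0. The probe set with the highest mean stood for each of 19775 genes. A linear model with 4 group means was fitted with limma 3.58.1 in R 4.3.3 to all 8 arrays and moderated by eBayes, with 4 residual and 4.59 prior degrees of freedom. The number of arrays limits the precision. The procedure was tested on simulated data. Full values are given for up to 8 called genes with the largest difference per knockdown comparison, for genes called between lines and for those called in Hep-3B, other genes with a call are named with their differences, and up to 3 called genes per pathway list are named. The gene list, pathway and marker lists, tests and alternatives were chosen with earlier results of these data known. The alternatives were a further quantile normalization, median centring, leaving out dim genes, averaging each gene's probe sets, leaving out _x_at and _s_at probe sets, testing all probe sets, an intensity trend with robust eBayes, array weights, fitting the compared arrays alone, a replicate block and leaving out each array. Promoter sequences are those of RefSeq, with no genome used. A promoter sequence and 1 pathway list are not reported here. Whether arrays with the same number were paired was checked through the correlation of their deviations from the group means over genes. It was -0.07 in Hep-3B, 0.06 in Huh7 and -0.06 between the controls. These values show no pairing and cannot exclude one, since noise between arrays may hide it.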

Additional observations from a re-analysis of the deposited data

Results flagged for a closer look

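The effect of knockdown differed between the lines, by the limma test of the difference itself, for 7 genes. The Huh7 effect minus the Hep-3B effect was 2.96 for TAGLN, 2.11 for ACTA1, 1.12 for MYL9, 1.11 for TPM4, 1.02 for TMSB4X, -1.05 for CFL2 and -1.06 for FERMT2, on the log2 scale. In TAGLN, ACTA1 and TPM4 the arrays of control and knockdown did not overlap in either line and the directions were opposite. KLHL23 fell by 2.05 in Huh7 and was at -1.14 in Hep-3B, where it did not pass, and its difference between the lines did not pass either. The response of a line and the depth of its knockdown therefore cannot be told apart. The 3′ minus 5′ level of ACTB also moved in opposite directions in the lines, and its part in these differences was not tested.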

How the results depend on the processing

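Counts of called genes among the 49, main value first, moved by more than 1.5 times as follows. Without _x_at and _s_at probe sets, which left 35 genes, they went from 2 to 1 in Hep-3B knockdown, from 23 to 10 in Huh7 knockdown, from 7 to 2 for the difference between lines and from 32 to 14 between controls. Of all genes left there, 0.883%, 11.6%, 1.32% and 28.9% were called, in that order. With an intensity trend and robust eBayes there were 5 in Hep-3B and 11 for the difference, beside 4.3% and 2.83% of all genes. With array weights there were 4 in Hep-3B, beside 3.39%. The compared arrays fitted alone gave 0 in Hep-3B and 13 in Huh7, beside 0% and 7.98%. A replicate block, for a pairing that no label states, gave 4 in Hep-3B, 20 in Huh7, 7 for the difference and 31 between controls. The shares of all genes were 2.14%, 11.8%, 1.14% and 31.3%. Leaving out 1 array in turn gave 0 to 6 in Hep-3B, 8 to 26 in Huh7, 1 to 10 for the difference and 28 to 33 between controls, where a group left with 1 array was assumed to vary like the others. Without dim genes, 24 of the 43 left were called in Huh7, beside 34.1% of all genes kept. In that setting 3 were called in Hep-3B (beside 6.75%), 8 for the difference (beside 4.41%) and 32 between controls (beside 57.5%). Among called genes, directions turned only without _x_at and _s_at probe sets: MYL9 was then at -0.15 in Huh7 knockdown and -0.0083 for the difference, and TLN1 and DIAPH1 were both at -0.17 between controls, each on a dimmer probe set. In the same setting TAGLN was at 0.09, TPM1 at 0.16 and GSN at 0.13 in Huh7. Calls held under every alternative that gave a value for 0 of 2 genes in Hep-3B, 5 of 23 in Huh7 (ACTA1, ACTN4, TMSB4X, FERMT2 and LIMA1), 1 of 7 for the difference (ACTA1) and 23 of 32 between controls. Some genes had no value in a setting. ACTA1, which lies under the median gene, had none without dim genes. TMSB4X, FERMT2 and LIMA1 had none without _x_at and _s_at probe sets. Of the 5 genes in Huh7, ACTN4 alone had a value under all 18 alternatives. Beyond leaving out probe sets, the cause of these changes was not tested. Dim probe sets carry no background call in the deposited values, so sizes for ACTA1 and ACTA2 in Huh7 and for MYL9, CNN1 and ACTG2 are uncertain.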

Other observations

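The annotation pairs 9 probe sets with both ACTB and ACTG1, the cytoplasmic actins, so they belong to neither gene alone. They lay between 12.34 and 13.43 on all 8 arrays. In Huh7 knockdown minus control they were at 0.11 to 0.25 and in Hep-3B at -0.03 to 0.04. Between Huh7 and Hep-3B control they were at -0.67 to -0.46, and all 9 passed in the limma test of all probe sets.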
